A study of Oryza sativa with 3 samples.

Results

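The nutrient- and metal-responsive microRNA loci of rice were taken as the loci of the families miR169, miR395, miR397, miR398, miR399, miR408 and miR827, by the family name at the start of the probe name. The array held 165 such probes at 55 loci, among 510 microRNA probes at 170 loci and 42418 gene probes in all. Each locus had 3 probes, 1 for the mature sequence and 2 for the sequence flanking it on the 5' and the 3' side, and each probe was printed as 2 spots. By family there were 16 loci of miR169, 23 of miR395, 2 of miR397, 2 of miR398, 11 of miR399 and 1 of miR408. No probe on the array carried the name miR827.

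Roots of the rice cultivar TN-67 were treated with 1 mM vanadate or with water, in 6-day-old seedlings that had been kept in darkness on moist filter paper. Root material of 1 h and 3 h was pooled by a fixed volume for each sample, so the times cannot be told apart. Vanadate RNA was labelled with Cy5 and water RNA with Cy3 on the same array, in 3 biological replicates, and each ratio below is vanadate over water. The dyes were exchanged on 0 of the 3 arrays, so a dye effect on a probe cannot be told apart from the treatment.

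A plant microRNA is cut from a longer folded transcript, and the short mature strand guides the cleavage of complementary mRNAs. Members of miR399 act on the mRNA of PHO2, a ubiquitin-conjugating enzyme that limits phosphate uptake, and miR395 acts on ATP sulfurylase and sulfate transporter mRNAs. Members of miR397, miR398 and miR408 act on mRNAs of copper proteins such as laccases, copper/zinc superoxide dismutases and plantacyanins. Members of miR169 act on NF-YA transcription factor mRNAs and are known for their response to nitrogen supply. Vanadate is chemically an analogue of phosphate.

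Labelling of total RNA in such kits starts from poly(A) tails, which primary microRNA transcripts carry and mature microRNAs lack. The files do not say whether a mature-sequence probe reads the mature strand or its precursor. Mature sequences within a family are nearly identical, so those probes may take up RNA of several loci, while flanking probes differ between loci. Levels are normalized signals on a linear scale, and they are set against each other between the channels of 1 probe only.

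Most of these probes gave no usable signal. A probe was tested when 2 or more of the 3 arrays gave it a signal well above its local background, in either channel. Of the 165 probes, 52 at 40 loci were tested, and 91 of the other 113 were above background on 0 arrays. Mature-sequence probes passed at 25 of 55 loci, and 21 of those 25 were miR395. Only 27 of the 110 flanking probes passed, 14 of them at miR169 and 7 at miR399. On the 3 arrays, 53, 52 and 55 of the 165 probes were above background in the vanadate channel, against 42, 42 and 50 in the water channel. Over all gene spots the share above background was 73.7% to 76.1% with vanadate and 69.0% to 75.3% with water. The part of this difference between channels in the results was not tested.

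A probe was called where limma's adjusted p, taken over all 31158 tested probes, was below 0.05. Of the 52 tested probes, 13 were called higher with vanadate, or 25.0%, while 28.4% of all tested probes were called higher. Another 6 were called lower, or 11.5%, against 20.8% of all tested probes. The other 33 were not called. Without a test, 28 of the 52 had a ratio above 0 on all 3 arrays, beside 38.9% of all tested probes. Among the 131 other tested microRNA probes, 21.4% were higher and 29% were lower. In this fit the share of these probes called higher was therefore close to the share over the whole array. The share called lower was below that of the array, a difference that was not tested. The count of 13 fell to 7 without replicate 1, to 7 without replicate 2 and to 9 without replicate 3. Over all 31158 tested probes the count fell from 8857 to 7537, 6893 and 8180 under the same removals. With median centring of the ratios in place of a loess curve, 3 of the 52 were called higher, beside 5706 of all tested probes. Under these settings the share of these probes fell further below that of the array. Of the 52 probes, 12 passed the filter through the vanadate channel alone, with fewer than 2 arrays above background with water, and 5 of these were higher and 0 lower. Another 4 passed through the water channel alone, and 3 of these were lower and 0 higher. Such a filter favours a difference in the direction of the bright channel, so these counts are a description.

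**Figure D1:**
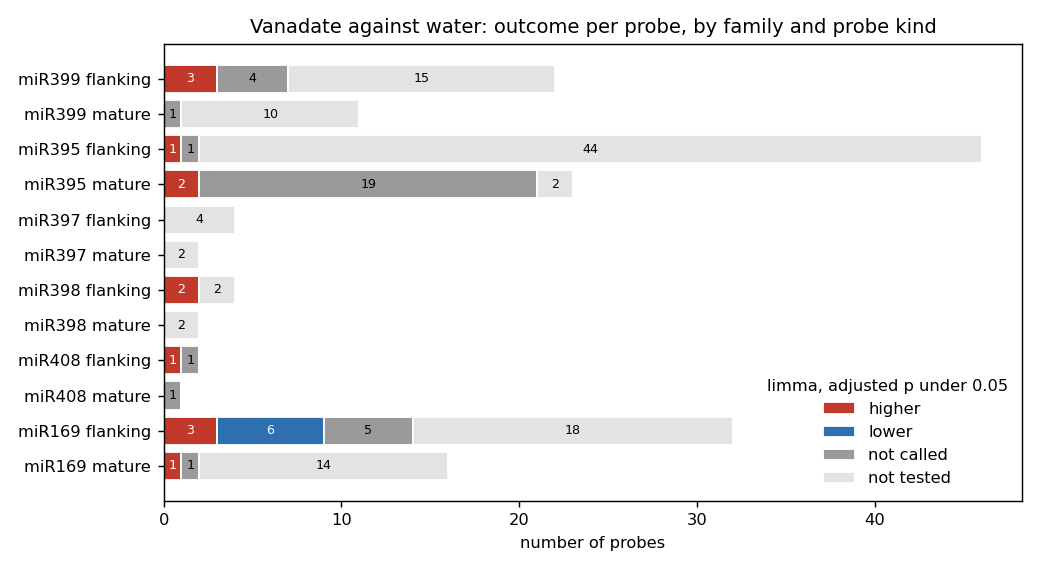
Number of probes (horizontal axis) of each family and probe kind that were higher or lower with vanadate, tested but not called, or not tested. The 6 lower probes are all miR169 flanking probes, and 44 of the 46 miR395 flanking probes were not tested.

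Among the phosphate-responsive miR399 loci, both flanks of miR399d rose and had the highest ratios of any tested member. With vanadate its 5' probe read 227, 135 and 210.2 (replicates 1, 2 and 3, as in every list of levels), against 91.2, 92.5 and 83.8 with water. The 3' probe read 219, 120.3 and 217 with vanadate, against 83.9, 79.1 and 77.6 with water. Every vanadate value was above every water value, and in both probes replicate 2 had the smallest difference.

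The fitted log2 ratio was 1.06 ± 0.16 (SE, n = 3 arrays; limma adjusted p = 0.00266) for the 5' probe of miR399d. It was 1.16 ± 0.17 (adjusted p = 0.00239) for the 3' probe. Neither probe was well above background with water on any array, so they passed the filter through the vanadate channel alone and the fitted ratio is a description of a dim water signal. Measured against the lowest signal above background, the vanadate level was at least 1.79-fold higher for the 5' probe and at least 1.72-fold higher for the 3' probe. Without replicate 1, 2 or 3 this bound was 1.53, 2.27 or 1.67 for the 5' probe. For the 3' probe it was 1.46, 2.26 or 1.55. The miR399d locus lies on chromosome 6 by its probe name. Its mature-sequence probe was not tested.

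The other miR399 loci differed less between the channels. The 5' flank of miR399c on chromosome 5 read 506, 404 and 602 with vanadate and 409.5, 339 and 496 with water, so the groups overlapped although each array gave a higher vanadate value. Its log2 ratio was 0.28 ± 0.08 (adjusted p = 0.0229), a call that was lost in 7 of 12 alternative settings, among them the removal of replicate 1 (0.0717), 2 (0.121) or 3 (0.0513). The flanks of miR399g and miR399h had ratios of 0.18 and 0.19 with adjusted p of 0.091 and 0.0805.

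The remaining tested miR399 probes had no common direction. The 3' flank of miR399b had log2 ratios of 0.21, -0.36 and 0.25 and a mean of 0.03 (adjusted p = 0.854). The 5' flank of miR399k averaged -0.12 (adjusted p = 0.246). The mature probe of miR399i, the only mature miR399 probe tested, read 245, 431 and 1199 with vanadate and 285, 897 and 1078 with water. Its level varied 4.90-fold among the vanadate samples and 3.78-fold among the water samples. The log2 ratio of -0.38 ± 0.21 was not called (adjusted p = 0.19), but it was -0.64 (adjusted p = 0.019) without replicate 3.

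In all, 3 of the 8 tested miR399 probes were called higher and 0 lower by limma, and at an unadjusted p below 0.05 these counts were 4 and 0. Over all tested probes 28.4% were called higher and 20.8% lower. The median log2 ratio of the 8 miR399 probes was 0.18, beside 0.02 over all tested probes. Both miR399d flanks and the tested flanks of miR399g and miR399h passed the filter through the vanadate channel alone. Such a filter favours a higher ratio, so the counts and the median are a description. With both channels required on all arrays, 2 probes were left and their median was -0.048.

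**Figure D2:**
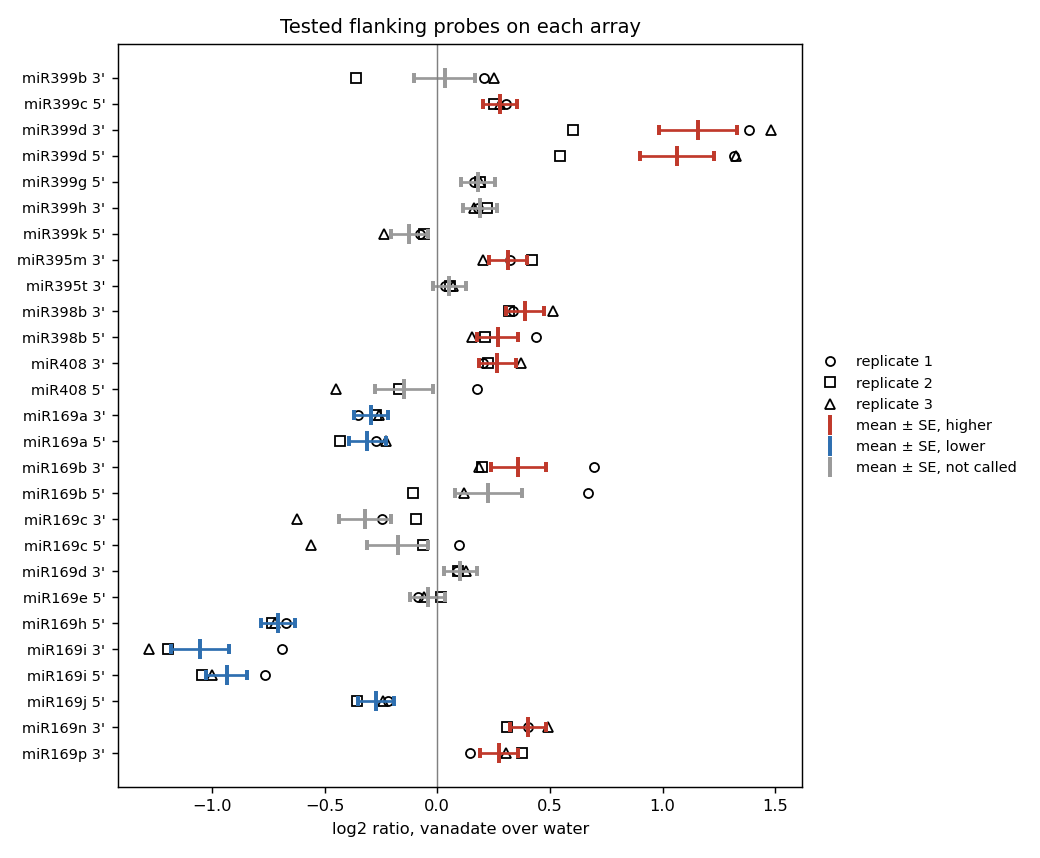
Log2 ratio of vanadate over water (horizontal axis) for each of the 27 tested flanking probes, with 1 symbol per array and the fitted mean ± SE. The miR399d flanks lie farthest to the right, at means of 1.06 and 1.16, and the miR169i flanks farthest to the left, at -0.94 and -1.05.

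The sulfate-responsive family miR395, whose loci stand in clusters in the rice genome, gave mature-probe signal at nearly every locus and little flanking signal. Only 2 of its 46 flanking probes were tested. The 3' flank of miR395m read 119, 126 and 119.6 with vanadate and 94.9, 94.0 and 104 with water, with no overlap between the groups. It was above background with vanadate on 2 arrays and with water on none, and its level was at least 1.15-fold higher with vanadate (log2 ratio 0.31 ± 0.08, adjusted p = 0.0211). That call was lost without replicate 1 (0.0669) and without replicate 2 (0.166). The 3' flank of miR395t did not pass the test, at 0.05 (adjusted p = 0.575).

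Only 2 of the 21 tested mature miR395 probes rose. The miR395a probe read 419, 414 and 697 with vanadate and 354, 322 and 464 with water, and the ranges overlapped through the water sample of replicate 3. Its log2 ratio was 0.40 ± 0.09 (adjusted p = 0.0146), a 1.32-fold difference, and it was not called from the processed signals (0.30, adjusted p = 0.067) or with median centring (0.29, adjusted p = 0.161). The miR395c probe read 149, 135 and 186 with vanadate and 127, 111 and 153 with water, also with overlap. It was above background with water on 1 array, so it passed through the vanadate channel alone. Its log2 ratio was 0.26 ± 0.08 (adjusted p = 0.0281), and the removal of any 1 replicate ended the call (0.0626 without replicate 1, 0.173 without 2, 0.0691 without 3).

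The other 19 mature miR395 probes were not called, although their ratios lay close together. On replicates 1, 2 and 3 the median log2 ratio of the 21 probes was 0.16, 0.08 and 0.18. The lowest were -0.05, -0.12 and -0.06 and the highest 0.40, 0.36 and 0.60. All 23 tested miR395 probes, flanks included, had a mean above 0, between 0.04 and 0.40. That count depended on the scaling, since 12 of 23 were above 0 from the scanner's processed signals and 15 of 23 with median centring. The median of the whole array moved too, to -0.12 and -0.05 under those settings, against 0.02. Relative to it the miR395 median was 0.12 higher with the processed signals and 0.11 higher with the loess ratios. In all, 3 of 23 probes were called higher and 0 lower by limma, with 4 and 0 at an unadjusted p below 0.05. The shares over all tested probes were 28.4% higher and 20.8% lower.

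By the chromosome in the probe name, 14 tested miR395 probes belonged to chromosome 4, 5 to chromosome 8 and 4 to chromosome 9. Their median log2 ratios were 0.17, 0.10 and 0.12. The 3 called probes belonged to chromosome 4. A difference between the chromosomes was not tested, and near-identical mature sequences may share signal across them.

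**Figure D3:**
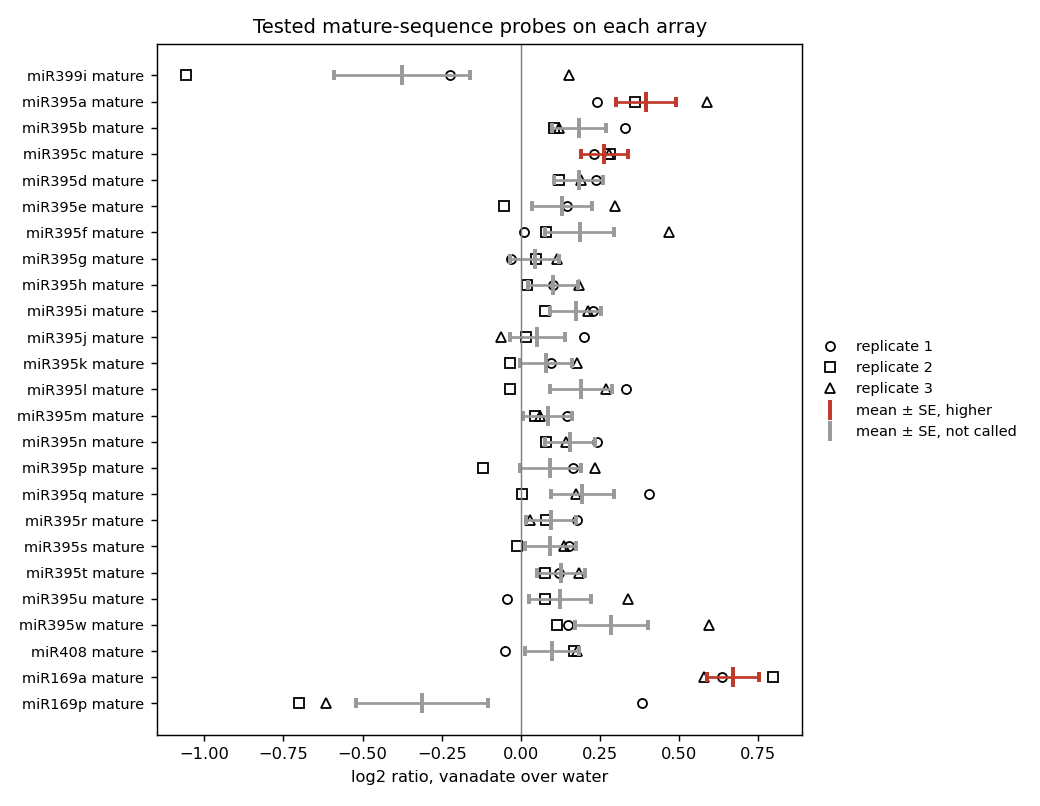
Log2 ratio of vanadate over water (horizontal axis) for each of the 25 tested mature-sequence probes, with 1 symbol per array and the fitted mean ± SE. The 21 miR395 means lie between 0.04 and 0.40, and the miR169a probe stands to the right of them at 0.67.

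Among the copper-responsive families, both flanks of miR398b and 1 flank of miR408 rose, by 1.20- to 1.31-fold. The 3' flank of miR398b on chromosome 7 read 187, 158 and 340.0 with vanadate and 148, 127 and 238 with water. The 5' flank read 302, 225 and 194 with vanadate and 223, 195 and 174 with water. Each array gave the higher value with vanadate, but the ranges of the groups overlapped in both probes.

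The log2 ratio of the miR398b 3' flank was 0.39 ± 0.08 (SE, n = 3; adjusted p = 0.00961), and it was not called with median centring (0.35, adjusted p = 0.0925). That of the 5' flank was 0.27 ± 0.09 (adjusted p = 0.0463), a call lost in 7 of 12 alternative settings, among them the removal of replicate 1 (0.168) or replicate 2 (0.133). No mature miR398 probe, and none of the 3 probes of miR398a, was tested. The 6 probes of the miR397 loci were not tested either, so these arrays give no result for that family.

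All 3 probes of miR408 on chromosome 1 were tested, and their mean ratios did not all have the same sign. The 3' flank read 1476, 1116 and 1613 with vanadate and 1280.3, 956 and 1246 with water. The 5' flank read 559.9, 457 and 593 with vanadate and 495, 514 and 811 with water. The mature probe read 200.2, 135 and 126 with vanadate and 207, 120.1 and 111 with water.

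Only the 3' flank of miR408 was called, at a log2 ratio of 0.27 ± 0.08 (adjusted p = 0.0337), and the call was lost without replicate 1 (0.0635), without replicate 2 (0.132) and without replicate 3 (0.116). The 5' flank averaged -0.15 ± 0.13 (adjusted p = 0.369) and the mature probe 0.10 (adjusted p = 0.375). Tested within the array, the 3' ratio exceeded the 5' ratio by 0.41 ± 0.14, which was not called (limma adjusted p = 0.0642). On replicates 1, 2 and 3 this difference was 0.03, 0.39 and 0.82. The difference was called without replicate 2 (0.42, adjusted p = 0.0168) and with median centring (0.40, adjusted p = 0.0070). It was not called without replicate 1 (0.61, adjusted p = 0.153) or without replicate 3 (0.21, adjusted p = 0.364). Over both copper families with signal, 3 of 5 tested probes were higher and 0 lower by limma, with 3 and 0 at an unadjusted p below 0.05. Over all tested probes 28.4% were called higher and 20.8% lower. The 5 copper probes belonged to 2 loci only, and their median log2 ratio was 0.27.

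**Figure D4:**
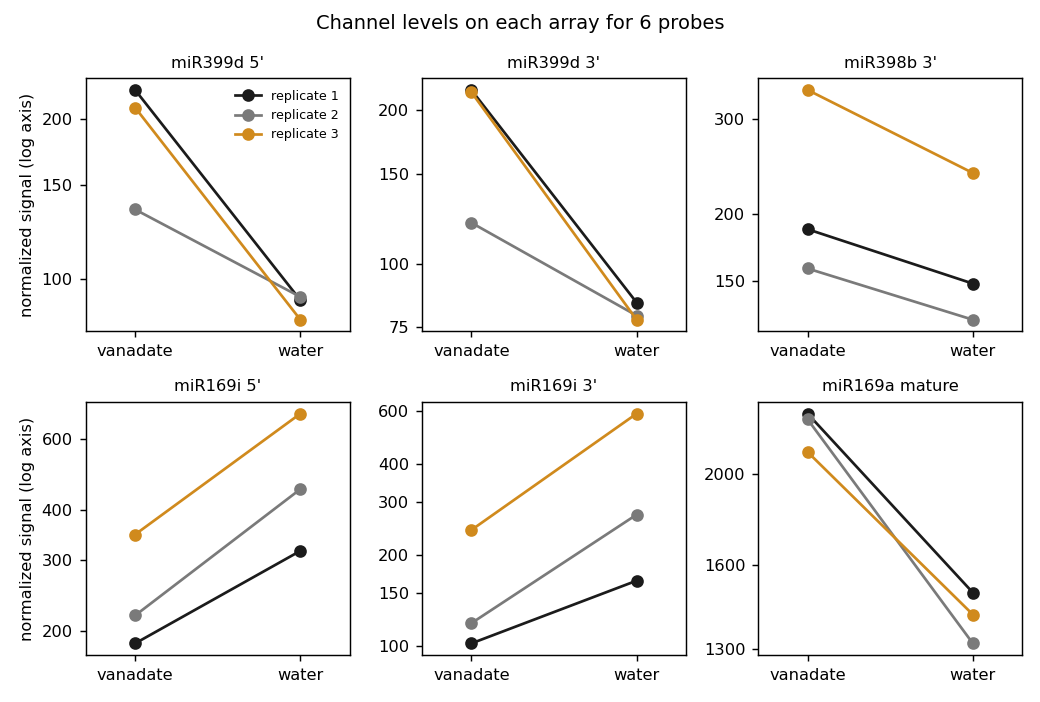
Normalized signal (log axis, scaled separately in each panel) of 6 probes in the vanadate and the water channel, with a line joining the channels of 1 array. The miR169i probes are lower with vanadate on each array while their levels differ between replicates, and the miR399d probes are higher with vanadate on each array.

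The miR169 probes were called in both directions, with 4 of 16 tested higher, or 25%, and 6 lower, or 37.5%. At an unadjusted p below 0.05 the counts were 4 and 7. Over all tested probes 28.4% were called higher and 20.8% lower, so calls in both directions are not particular to this family. Among the lower probes, the miR169a flanks and the miR169i 3' flank passed the filter through the water channel alone. Among the higher probes, the miR169b 3' flank passed through the vanadate channel alone. Such a filter favours these directions, so the shares are a description. The lowest ratios were those of miR169i and miR169h on chromosome 8. The miR169i 5' flank read 186, 219 and 347 with vanadate, against 316, 450.3 and 694 with water. The miR169i 3' flank read 102, 119 and 243 with vanadate, against 165, 273 and 589 with water. Replicate 3 was the highest and replicate 1 the lowest in both channels, so the ranges overlapped while each array gave the lower value with vanadate.

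The log2 ratio of miR169i was -0.94 ± 0.09 (SE, n = 3; adjusted p = 0.000378) at the 5' flank and -1.05 ± 0.13 (adjusted p = 0.00101) at the 3' flank. The vanadate level was 1.91-fold lower at the 5' flank and 2.08-fold lower at the 3' flank. The 5' flank stood above background throughout, but with vanadate the 3' flank did so on 1 array only, and it passed the filter through the water channel alone. For the 3' probe the spread between replicates was larger than this, at 2.37-fold among the vanadate samples and 3.57-fold among the water samples. When the channels were treated as separate samples, which sets aside the pairing on the array, neither flank was called (adjusted p = 0.0867 and 0.181).

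The 5' flank of miR169h, named after its values were seen, had the same order of replicates. It read 158, 195 and 325 with vanadate and 252, 324 and 535 with water. The log2 ratios of -0.67, -0.73 and -0.72 gave a mean of -0.71 ± 0.08 (adjusted p = 0.000608), a 1.63-fold lower level. On chromosome 9 the 5' flank of miR169j was lower by a small amount, at -0.27 (adjusted p = 0.0294), and it lost its call in 5 of 12 settings, among them the removal of replicate 1 (0.0592), 2 (0.218) or 3 (0.0521).

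At miR169a on chromosome 1, the mature-sequence probe rose while both flanks fell. The mature probe read 2321, 2289 and 2112 with vanadate and 1493, 1318 and 1415 with water, with no overlap between the groups. Its log2 ratio was 0.67 ± 0.08 (adjusted p = 0.00112), a 1.59-fold difference. The 5' flank read 115, 120.5 and 118 with vanadate and 138, 162 and 138 with water. The 3' flank read 116, 109 and 111 with vanadate and 148, 132 and 133 with water.

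The vanadate values of both miR169a flanks were below all their water values, but the flanks were dim. With vanadate they were well above background on none of the arrays, so they passed the filter through the water channel alone. Their water level was at least 1.24-fold higher at the 5' flank (log2 ratio -0.31 ± 0.08, adjusted p = 0.022) and at least 1.23-fold higher at the 3' flank (-0.29 ± 0.08, adjusted p = 0.0202). These bounds equal the fitted folds, because the vanadate signals lay above the lowest signal called above background, and without replicate 2 the bound at the 5' flank was 1.19. Each of these calls was lost in 4 of 11 settings. Without replicate 1 the adjusted p was 0.0555 at the 5' flank and 0.072 at the 3' flank, and without replicate 2 it was 0.183 and 0.108. The mature ratio exceeded the mean of the flanking ratios by 0.97 ± 0.11, and by 1.72 from the processed signals, in a comparison added after the data were seen. The flanks entered through the water channel alone, so this is a description, and no test is drawn from it. Of the 11 microRNA loci of the array with all 3 probes tested, 72.7% were called in that comparison. Which RNA the mature probe of miR169a reads, and from which miR169 loci, was not tested.

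The remaining miR169 probes had smaller ratios. The 3' flank of miR169n on chromosome 11 rose 1.32-fold, reading 471, 462 and 644 with vanadate and 356, 373 and 457 with water (log2 ratio 0.40 ± 0.08, adjusted p = 0.00768). Its call was lost with median centring (0.29, adjusted p = 0.165). The 3' flank of miR169p was higher at 0.28 (adjusted p = 0.0347), and that of miR169b at 0.36 (adjusted p = 0.0469). The miR169b flank was above background with water on 1 array and passed through the vanadate channel alone. The miR169b value rested on replicate 1, with log2 ratios of 0.70, 0.20 and 0.19. Without replicate 1 it was 0.19 (adjusted p = 0.149), and the call was lost in 5 of 11 settings. The miR169p call was lost in 6 of 12 settings, among them the removal of replicate 2 (0.234) or replicate 3 (0.0807).

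The mature probe of miR169p had ratios of 0.38, -0.70 and -0.62 and was not called (-0.31, adjusted p = 0.256). Without replicate 1, the array with a ratio above 0, it was -0.66 (adjusted p = 0.007). This probe was above background with vanadate on 1 array and passed through the water channel alone. Such a filter favours a lower ratio, so that value is a description. The miR169c flanks were not called, at -0.32 for the 3' and -0.18 for the 5' probe, although the 3' probe was called without replicate 2 (-0.43, adjusted p = 0.0413) and from the processed signals (-0.80, adjusted p = 0.0481). With the slide as a fixed block both were called lower, at -0.40 (adjusted p = 0.0059) for the 3' and -0.27 (adjusted p = 0.0314) for the 5' probe. That fit gives replicate 3 as much weight as replicates 1 and 2 together. Without replicate 3 neither was called, at -0.17 (adjusted p = 0.213) for the 3' and 0.02 (adjusted p = 0.908) for the 5' probe. The tested flanks of miR169d and miR169e averaged 0.10 and -0.04 and were not called. The median over the 16 tested miR169 probes was -0.22, and it was -0.10 without replicate 3. At 6 miR169 loci no probe was tested.

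Both flanks were tested at 7 of the 55 loci. They were higher together at miR398b and miR399d, lower together at miR169a and miR169i, and called in opposite directions at 0 loci. The miR399d flanks passed the filter through the vanadate channel alone. The miR169a flanks and the miR169i 3' flank passed through the water channel alone. Such a filter favours these directions, so the agreement of the flanks is a description. Over all 37 microRNA loci with both flanks tested, 6 were higher on both and 13 lower on both. The 3' and 5' ratios differed at 0 of these 7 loci (limma adjusted p of 0.0642 to 0.867) and at 1 by an unadjusted p below 0.05, miR408, while they differed at 29.7% of those 37 loci. From the processed signals the miR169i difference was -0.78 (adjusted p = 0.0207), against -0.12 with the loess ratios.

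Across up to 12 alternative settings, 3 of the 19 called probes kept their call under every setting run, namely both miR399d flanks and the mature probe of miR169a. The filter that asks for both channels on all arrays removes the miR399d flanks, so they were run under 11 settings, and their calls rest on a water signal not above background. None of the 19 changed sign. The ratios of dim probes were larger with the scanner's processed signals, at 3.53 and 3.12 for the miR399d 5' and 3' flanks and -1.48 and -2.26 for the miR169i 5' and 3' flanks. Background correction with an added offset, as used above, draws the ratios of dim probes toward 0.

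**Figure D5:**
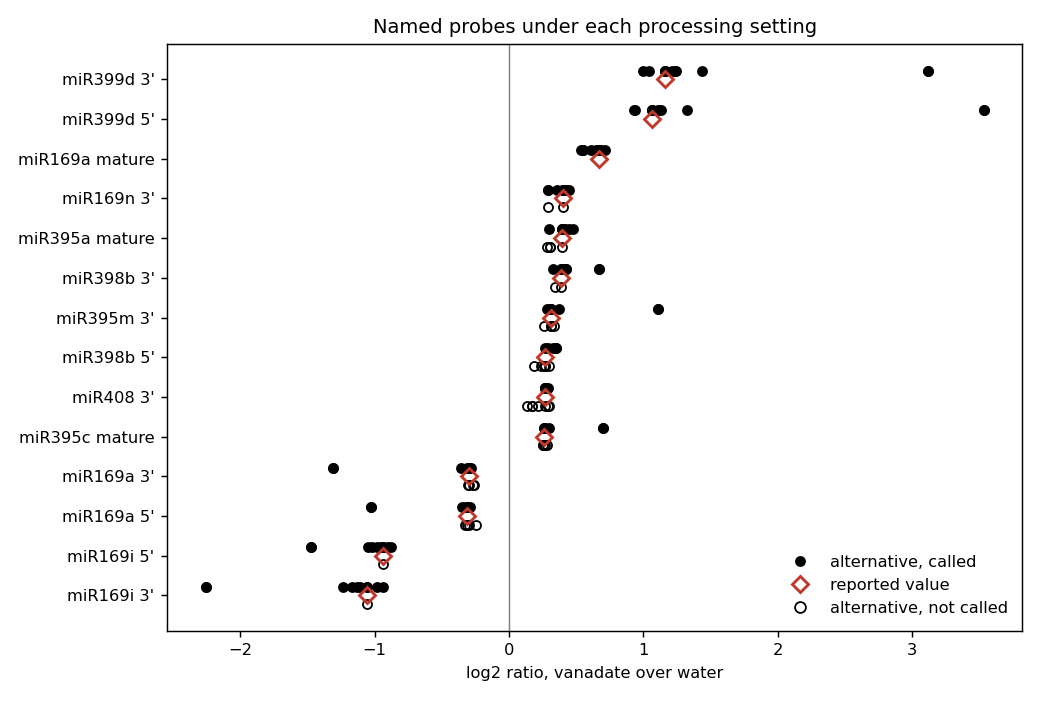
Log2 ratio of vanadate over water (horizontal axis) of the 14 probes named by rule, as reported (open diamond) and under each alternative setting, filled where it was called and open where it was not. All points of a probe lie on 1 side of 0, and the values farthest from 0 are those of the miR399d flanks, at 3.12 and 3.53.

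Loci listed as targets of these families, from background knowledge, are given by identifier alone, since the annotation used here names none of them. Of 19 such loci, 15 were tested, each read by its brightest tested probe. On that probe 1 was higher, 1 was lower and 13 were not called, with a median log2 ratio of -0.04. Over all tested probes 28.4% were called higher and 20.8% lower. Both calls were in the list for miR169. Os03g0696300 read 1743, 1484 and 2150.2 with vanadate and 1488, 1017 and 1374 with water, with overlap and a log2 ratio of 0.47 ± 0.10 (adjusted p = 0.0105). It was not called with median centring (adjusted p = 0.101). Os07g0608200 read 199, 242 and 195 with vanadate and 276, 291 and 264 with water, with no overlap, at -0.39 ± 0.08 (adjusted p = 0.00948). Os08g0196700, also listed for miR169, was not called at -0.42 ± 0.15 (adjusted p = 0.0578), but was without replicate 2 (-0.65, adjusted p = 0.0036).

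The listed locus of miR399, Os05g0557700, had a log2 ratio of 0.14 ± 0.08 and was not called (adjusted p = 0.187). The tested loci of the miR398 list had ratios of -0.15 to 0.19 on their brightest probe, and none was called on it. At Os04g0573200, however, 2 of the 4 probes were called higher. The log2 ratios of its 4 probes ran from 0.19 to 1.51, with a lowest limma adjusted p of 0.00226. The miR395 loci Os03g0743900 and Os03g0195800 were not called, at 0.04 and -0.14. Os05g0458600, listed for miR397, had a ratio of 0.26 ± 0.20 (adjusted p = 0.323). Loci listed for miR408 and miR827 were not tested, nor was Os03g0146800, listed as a decoy of miR399, which was not above background.

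Root marker loci were checked in the same way. Of 3 loci listed for root, Os02g0112100 was not above background, and of the 2 tested Os02g0662000 was higher at 0.68 on 1 probe while its other probe was lower. Both loci listed for the endodermis and exodermis were lower with vanadate, at log2 ratios of -2.06 and -1.02. Of 4 tested leaf loci 1 was higher, Os01g0720500 at 0.62. The part of these differences in the microRNA results was not tested, and in whole roots fewer cells of a type and less RNA per cell cannot be told apart.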

How the data were processed

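The 3 deposited scanner files hold 2-colour intensity values, the median signal and the local background of each spot, from Agilent Feature Extraction (version 10.7.1.1, per the file headers). The deposited log ratio is log10 of red over green, per the file headers. A table of log2 ratios was also deposited by the authors, and at least 99.955% of its values matched log2 of processed red over green within 0.001. Its column medians were -0.19, -0.21 and -0.05, so its ratios are vanadate over water without centring on 0.

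Background was corrected with normexp (offset 50), each array was normalized by loess, and channel levels were scaled with Aquantile (limma 3.58.1, R 4.3.3). Control and outlier spots were left out, and the spots of each probe gave 1 mean. A probe counted as above background on an array where 1 or more of its 2 spots did. Ratios were tested against 0 with limma's moderated test over all 31158 tested probes with Benjamini-Hochberg adjustment, and the procedure was tested on simulated data. The number of arrays, 3, limits the precision. Each array carries both groups, so its ratio pairs the samples. Replicates 1 and 2 share a slide and scan day, and replicate 3 has its own.

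The members and gene lists were chosen with earlier results of these data known. Probes named by rule were loci with both flanks called in 1 direction, the called flank with the largest rise and the largest fall in each family, and every called mature probe. The miR399c, miR169b, miR169h, miR169j and miR169p probes and the uncalled ones were added after their values were seen. Alternatives covered background, normalization, filter, value table, slide, pairing, variance trend and left-out replicates. Sequences, coordinates and target names were not used here, since the reference table matched 0 of the listed target identifiers.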

Additional observations from a re-analysis of the deposited data

How the results depend on the processing

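Of the 14 probes named by rule, none changed sign under any alternative run. The loess ratios gave 13 higher and 6 lower probes among these loci. Median centring gave 3 higher probes, the filter that asks for both channels on all arrays gave 7 higher and 3 lower, and channels as separate samples with no replicate block gave 3 higher and 0 lower (limma; 4 and 3 at an unadjusted p below 0.05). Leaving out 1 replicate gave 7 to 9 higher and 4 to 6 lower. The median log2 ratio of the phosphate families, 0.18, was 0.30 with processed signals and with the authors' value table, 0.23 with negative-control background, 0.065 with no filter and -0.048 with the strict filter, which left 2 probes, and 0.19 to 0.20 without 1 replicate. The sulfate median, 0.13, was 0.00085 with processed signals and the value table and 0.050 with median centring, and 0.11 to 0.20 without 1 replicate. The copper median, 0.27, was 0.23 with processed signals, 0.17 with median centring and with the value table and 0.085 with no filter, and 0.18 to 0.29 without 1 replicate. The nitrogen median, -0.22, was -0.54 with processed signals and the value table and -0.043 with no filter, and -0.28 to -0.10 without 1 replicate. Over all probes, 8857 were higher and 6496 lower, against 6819 and 9668 with processed signals. The filters change which probes enter, and the cause of the other differences was not tested. The slide as a random block could not be fitted with 3 arrays on 2 slides. Low signal over background limits most of these loci.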
